A study of Lactuca sativa with 6 samples.

Results

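The clusters described here are those whose level in both LsSq libraries lay on the same side of every other library of the lettuce leaf series. LsSq stands for seedlings treated with an extract of the green microalga Scenedesmus quadricauda, LsCv for seedlings treated with an extract of Chlorella vulgaris, and LsCK for untreated controls. A cluster is a group of transcripts assembled from the reads and taken as a unigene, and its level is given as CPM, the count divided by the total of its library and put on a common scale, without a correction for length. The high gap was the log2 ratio of the lower LsSq value to the highest value among the other 4 libraries, and the low gap was the log2 ratio of the lowest of the other 4 values to the higher LsSq value, each after adding 0.5 CPM. The 150 largest positive high gaps and the 150 largest positive low gaps gave 300 members out of 39253 clusters, of which 22892 had a mean of at least 1 CPM and did not belong to the study's own lists of phytohormone and qRT-PCR clusters. The choice used the measured levels of all 6 libraries, so the distance of LsSq from LsCv and from LsCK is a description of the members and no test of a difference.

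Leaves were sampled 4 days after treatment from hydroponic seedlings that had acclimatized for 6 days. In LsSq and LsCv the extract was supplied at 1 mg of organic carbon per litre in 500 mL of Hoagland nutrient solution, and LsCK received the nutrient solution alone. Poly-A RNA was sequenced in 6 libraries, 2 in each of the 3 groups. Each box held 10 seedlings and the methods state 5 biological replicates, but which boxes a library came from is not stated, so that the p-values given measure only the spread between these libraries.

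Extracts of green microalgae are used as biostimulants, preparations that promote plant growth and nutrient use when given in small amounts. They hold a mixture of sugars, amino acids, fatty acids and hormone-like compounds, and their composition differs between algal species. Cytokinins, the adenine-derived hormones that promote cell division and delay leaf senescence, are among the plant hormones often studied under such treatments.

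None of the 300 members carried a gene name. The deposited table gives cluster identifiers only, and 0 members stood among the 1214 clusters with descriptions that were held from the study's supplementary list, which is a part of that list. The members are therefore described by level, spread and position in the assembly, with 2 higher and 2 lower clusters given by identifier, and the leaf label was not checked against marker genes. Among the largest gaps, the only clusters with a description held here were a cytokinin hydroxylase and a zeatin O-glucosyltransferase. Their descriptions come from the study's list of phytohormone clusters, and the rule set them aside because they were listed.

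The libraries held 26.4 to 35.2 M counts (M, mega), so that 3 counts corresponded to 0.0853 to 0.114 CPM. LsCK replicate 2 stood apart from the rest in the number of clusters counted in 1 library alone. It held 1943 clusters counted in no other library, against 100 to 248 in the other 5 libraries. The Spearman correlation across clusters with the other libraries was 0.83 to 0.94 for both LsCK replicate 2 and LsCv replicate 1, which correlated least with each other, and 0.97 between the LsSq replicates. Genes are not independent replicates, and the correlations are given as a description. The LsSq replicates were the closest pair. Over the 22892 clusters, replicates differed by a median of 0.24 on the log2 scale in LsSq, 0.49 in LsCv and 0.52 in LsCK, regardless of sign.

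The 150 higher members had gaps of 0.75 to 1.89 on the log2 scale, with a median of 0.89. With the added 0.5 CPM included, these gaps correspond to ratios of 1.68 to 3.71. The 150 lower members had gaps of 0.64 to 2.26, with a median of 0.85, or ratios of 1.56 to 4.81 on the same scale, which understates the distance of clusters with few counts. At the edge of the choice, the last 2 higher members inside had gaps of 0.74781 and 0.74766, and the first 2 outside had 0.74704 and 0.74349. Among lower clusters the last 2 inside had 0.65 and 0.64 and the first 2 outside had 0.64 and 0.64. The values ran on across the limit without a break, so the number 150 marks a place in an order and not a separate class.

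The higher members took a larger share of the LsSq libraries. Their summed level was 7081 and 5927 CPM in LsSq replicates 1 and 2, against 1890 and 1994 CPM in LsCv and 2155 and 2482 CPM in LsCK. These sums were 0.708 and 0.593% of the LsSq libraries, against 0.189 and 0.199% of the LsCv libraries and 0.216 and 0.248% of the LsCK libraries. The median higher member had 11.3 and 10.7 CPM in LsSq, against 2.65 and 3.39 CPM in LsCv and 3.79 and 4.66 CPM in LsCK. LsCv replicate 1 was the library farthest from LsSq in 87 of the higher members, LsCv replicate 2 in 34, and LsCK replicates 1 and 2 in 14 and 15. Over all clusters, LsCv replicate 1 lay below both LsSq libraries in 58.7%, LsCv replicate 2 in 46.3%, and LsCK replicates 1 and 2 in 44.5 and 38.1%. LsCv replicate 1 was thus often below LsSq outside the members too, with levels scaled by library total. TMM scaling, used further below, raises this library most, as its factor was 0.836 against 0.995 to 1.09 in the others. These counts were not repeated under that scaling. In bulk leaf tissue, more RNA per cell and more cells of a type that holds the RNA cannot be told apart.

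The lower members showed the opposite order by choice, and the LsCv libraries had their highest sums and medians. Their summed level was 1834 and 2434 CPM in LsSq, against 6790 and 9357 CPM in LsCv and 6495 and 6274 CPM in LsCK. The median lower member had 2.06 and 2.91 CPM in LsSq, against 13.0 and 11.6 CPM in LsCv and 9.01 and 9.18 CPM in LsCK. Among all 6 libraries, LsCv replicate 2 held the highest level in 65 of the 150 lower members and LsCv replicate 1 in 48, whereas LsCK replicates 1 and 2 did so in 13 and 24. The rule kept LsSq from being the highest here. These counts were not made over all clusters, so they only describe the members.

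**Figure D1:**
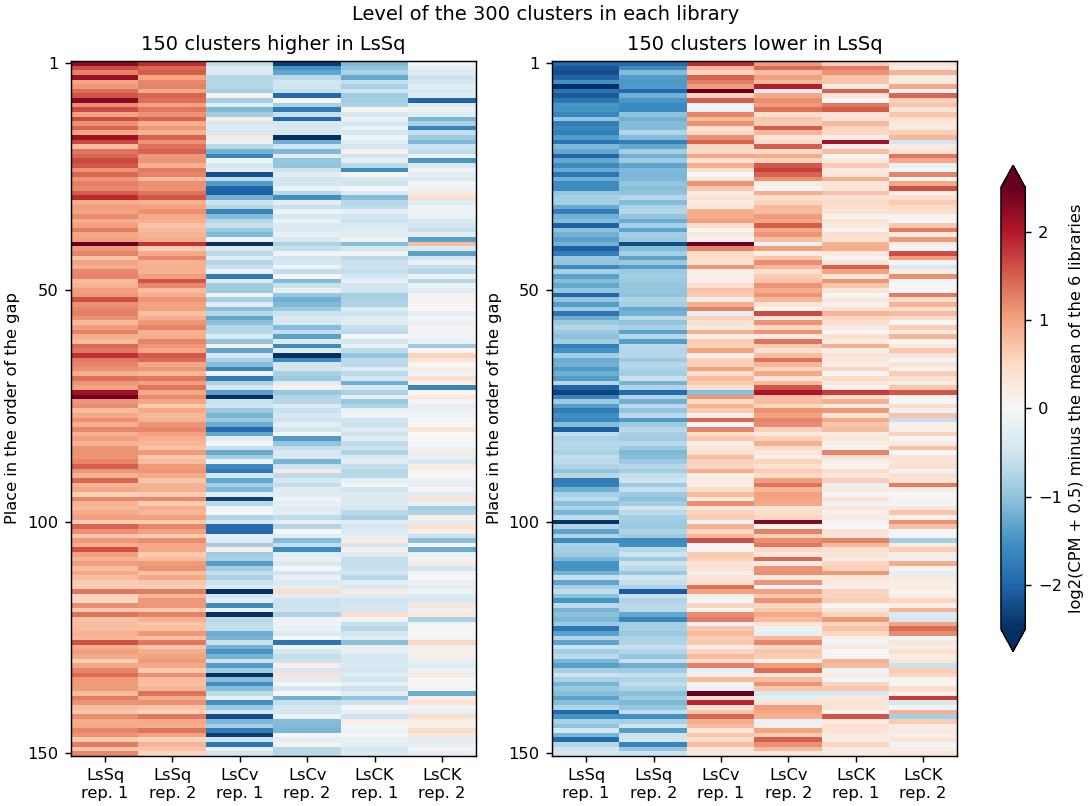
Level of each of the 300 members in the 6 libraries, as log2(CPM + 0.5) minus the mean of the 6 libraries (color scale, capped at 2.5 on either side), with higher members on the left, lower members on the right and the largest gap at the top. Both LsSq columns lie on one side of the other 4 columns by choice, and the darkest blue cells among the higher members fall mainly in LsCv replicate 1, the farthest library in 87 of them. Over all clusters, that library lay below both LsSq libraries in 58.7%, with levels scaled by library total.

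Many higher members had low counts. Their mean level over the 6 libraries ran from 1.00 to 248 CPM with a median of 6.23 CPM, against a median of 15.0 CPM over the 22892 clusters, and 65 of 150 (43.3%) had a mean under 5 CPM, against 26.3% of all clusters. A further 64 had 5 to 50 CPM and 21 had at least 50 CPM. The lower members ran from 1.06 to 569 CPM with a median of 8.06 CPM, and 58 had a mean under 5 CPM, 68 had 5 to 50 CPM and 24 had at least 50 CPM. A few clusters carried much of each sum of CPM. The 10 higher members with the most CPM held 42.5% of the summed mean CPM of the higher members, and the 10 such lower members held 54.5% of that of the lower members.

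The higher member with the most CPM had 476 and 387 CPM in LsSq, against 114 and 150 CPM in LsCv and 153 and 209 CPM in LsCK. The lower member with the most CPM had 145 and 292 CPM in LsSq, against 899.9 and 835 CPM in LsCv and 609 and 635 CPM in LsCK. Neither of these had the largest gap in its direction. They held the places 78 and 33 in the order of gaps.

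The gap exceeded the log2 difference between the LsSq replicates in 148 higher and 129 lower members. The choice of the largest gaps favours this, and the LsSq replicates were the closest pair over all clusters. The gap exceeded the range of the other 4 libraries in 66 higher and 63 lower members. In most members the range of the LsCv and LsCK libraries was thus wider than the gap from the nearest of them to LsSq. That range spans 4 libraries of LsCv and LsCK, so it tends to be wider than a difference between replicates of LsSq alone. These counts cannot be set against each other. They were not made over all clusters, so they only describe the members.

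The LsSq replicates differed in a regular way. Replicate 1 had the higher level in 104 of the 150 higher members (69.3%) and in 48 of the 150 lower members (32.0%), against 51.8% of all clusters, and lay farther from the other groups in both directions. The median absolute log2 ratio between the LsSq replicates was 0.20 in higher and 0.38 in lower members, with 1.22 and 1.56 as the highest values, beside the 0.24 of all clusters.

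Cluster-15809.10965 had the largest gap among higher members, 1.89. It had 54.2 and 40.6 CPM in LsSq, against 7.15 and 1.75 CPM in LsCv and 4.86 and 10.6 CPM in LsCK. The LsSq libraries were both high, while the order of the LsCv and LsCK libraries was mixed. LsCK replicate 2 was the library nearest to LsSq. Part of its reads had been divided between clusters, since its expected count was not whole in every library.

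Cluster-15809.14772 came next with a gap of 1.67. Its level was 73.6 and 64.5 CPM in LsSq, against 18.6 and 8.05 CPM in LsCv and 11.4 and 19.9 CPM in LsCK. The ranges of LsCv and LsCK overlapped, and LsCK replicate 2 was again the nearest library.

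Cluster-19213.1 had the largest gap among lower members, 2.26. It had 0.714 and 0.731 CPM in LsSq, which rest on 21 counts in each library, against 16.2 and 9.25 CPM in LsCv and 6.68 and 5.41 CPM in LsCK. All 3 groups were separate in this cluster, with LsCv highest and LsSq lowest. In the edgeR fit, LsCv exceeded LsCK by 1.28 on the log2 scale (SE 0.46, unadjusted p = 0.0280), and the Benjamini-Hochberg adjusted p of 0.538 did not pass the threshold of 0.05. Without LsCv replicate 1 the difference was 0.63.

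Cluster-15809.4030 followed with a low gap of 1.75. It had 6.12 and 9.08 CPM in LsSq, against 50.3 and 76.4 CPM in LsCv and 70.4 and 31.7 CPM in LsCK. The ranges of LsCv and LsCK overlapped. Both LsSq libraries were far below either.

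The members at places 3 to 10 covered a wide range of levels. Among the higher ones the gaps were 1.30 to 1.56 and the LsSq means 2.93 to 215 CPM, against 0.508 to 57.3 CPM in LsCv and 0.483 to 69.1 CPM in LsCK. Among the lower ones the gaps were 1.39 to 1.66 and the LsSq means 0.296 to 19.2 CPM, against 3.18 to 150 CPM in LsCv and 4.10 to 87.8 CPM in LsCK.

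**Figure D2:**
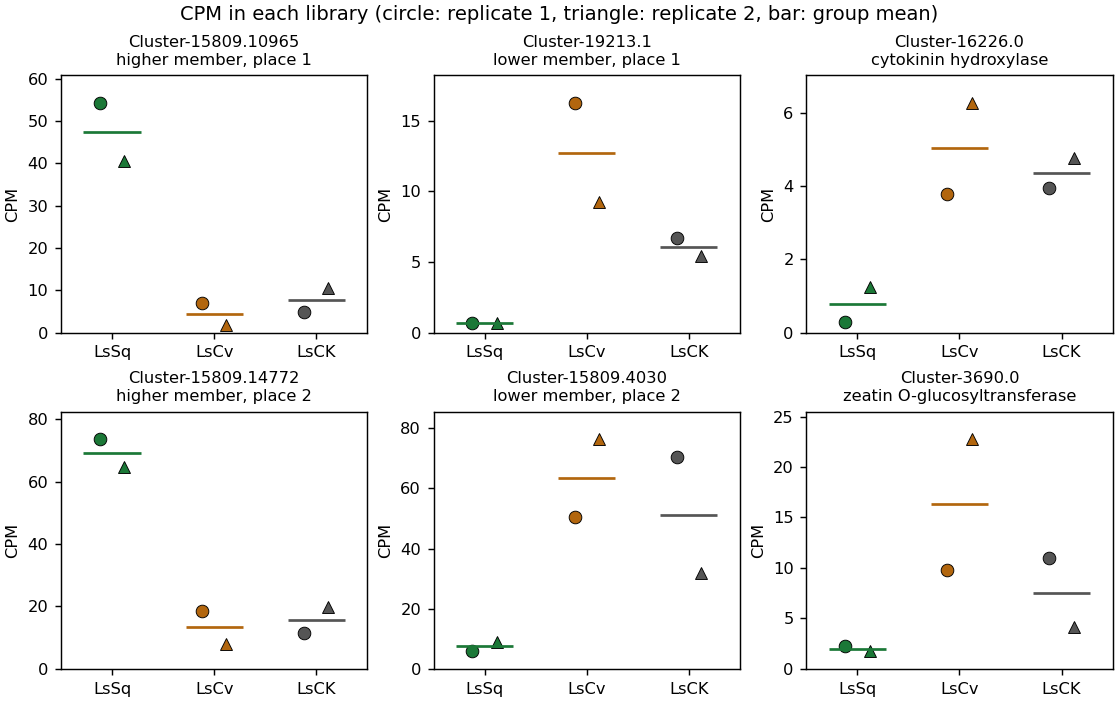
CPM of the 2 higher members with the largest gaps (left), the 2 lower members with the largest gaps (middle) and 2 cytokinin clusters that the rule set aside (right), per library, with circles for replicate 1, triangles for replicate 2 and bars for group means. In each panel both LsSq points lie outside the range of the other 4 points, and LsCv and LsCK overlap in 5 of the 6 panels.

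Cytokinin hydroxylase, which turns isopentenyladenine-type into trans-zeatin-type cytokinins, would have held place 16 among the lower clusters. Cluster-16226.0, annotated with this function, had 0.306 and 1.25 CPM in LsSq, against 3.79 and 6.26 CPM in LsCv and 3.95 and 4.77 CPM in LsCK, with a low gap of 1.29. The LsSq values rest on 9 and 36 counts, and the LsCv range included the LsCK range. Zeatin O-glucosyltransferase (ZOG) attaches glucose to zeatin and so forms a storage cytokinin. Cluster-3690.0, described as ZOG, would have held place 96, with 2.24 and 1.74 CPM in LsSq, against 9.84 and 22.8 CPM in LsCv and 11 and 4.13 CPM in LsCK and a gap of 0.75. In both clusters the LsSq libraries held the lowest values of the 6. No cluster of the study's lists would have entered the higher members, and the largest high gap among them was 0.42, in Cluster-15809.14844, described as the cytokinin phosphoribohydrolase LOG3, which releases active cytokinin bases.

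Of the 1214 clusters of the supplementary list held here, which the study chose for moving the same way under both extracts, 267 had a mean of at least 1 CPM. Of these 267, 11 lay above and 1 below all other libraries in LsSq, against 15% and 7.68% of the 22892 clusters. The gaps were at most 0.33 and 0.04, well short of the limits for membership. One of the 11, Cluster-16921.0, is described as a probable chalcone-flavonone isomerase 3, of a family of flavonoid pathway proteins, and its gap was 0.33. Another, Cluster-15809.6665, is described as a MYB10-like transcription factor, and its gap was 0.21. It had 21.0 and 20.9 CPM in LsSq, against 8.57 and 18.1 CPM in LsCv and 1.73 and 0.909 CPM in LsCK. Both extracts thus lay above the control. Because the lists by key word over these descriptions (kinases, transport, transcription, cell wall, photosynthesis, defence, hormones, proteolysis and animal descriptions) hold 0 of the 300 members, no gene group could be counted among the members.

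The number before the point of an identifier is the super-cluster, a set of clusters that share reads. The largest super-cluster, which holds 3 of the 4 members given by identifier, contained 70 higher members (46.7%) and 82 lower members (54.7%), against 60.2% of the 22892 clusters. Outside it, members of both directions shared a super-cluster in 0 cases, and 1 super-cluster held 2 lower members. Sharing outside the largest super-cluster was not counted over all clusters, so these numbers are only a description. An expected count that was not whole in at least 1 library, a sign that reads were divided between clusters with shared sequence, was found in 45 higher (30.0%) and 61 lower members (40.7%), against 45.8% of all clusters.

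A count of 0 in at least 1 library was found in 4 higher members (2.67%), against 1.95% of all clusters, each time in LsCv replicate 1, where LsSq held 100 to 593 counts. It was found in 4 lower members (2.67%), each time in LsSq replicate 1, while LsSq replicate 2 held 3 to 17 counts. In 2 lower members both LsSq libraries had 3 counts or fewer. Set against 3 counts in each LsSq library, these 2 were at least 15.6-fold lower in LsSq than the mean of the other 4 libraries.

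The extent to which each group stood apart was measured in the same way for all 3 groups. LsSq libraries lay above all 4 others in 3433 of 22892 clusters (15%) and below them in 1759 (7.68%). LsCv libraries lay above the rest in 1710 clusters and below in 4429, and LsCK libraries lay above in 1354 and below in 666. At place 150, the gap above the others was 0.75 for LsSq, 0.53 for LsCv and 0.42 for LsCK, whereas the gap below the others was 0.64 for LsSq, 1.03 for LsCv and 0.31 for LsCK. A gap of at least 1 was reached by 44 clusters above and 43 below in LsSq, by 12 and 166 in LsCv and by 15 and 10 in LsCK.

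The scaling of the libraries affected this split for LsSq. For LsCv and LsCK the counts were made with CPM by library total only. LsCv replicate 1 had the lowest TMM factor, 0.836, and its effect on those counts was not tested. Of all clusters that LsSq set apart, 66.1% lay above the others with CPM by library total, 61.5% after TMM scaling and 55.0% with DESeq2 size factors. Of the 150 members in each direction, 125 higher and 127 lower were taken again after TMM scaling, and 123 and 127 with DESeq2 size factors.

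**Figure D3:**
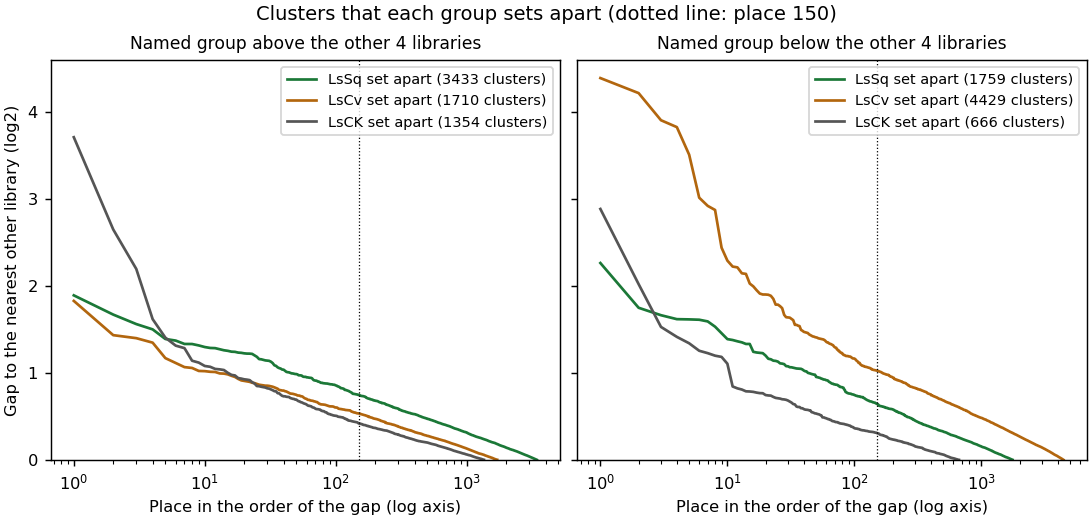
Gap to the nearest other library (log2) against the place in the order of gaps (log axis) for clusters in which LsSq, LsCv or LsCK libraries lie above (left) or below (right) all others, with a dotted line at place 150. At that line, with CPM by library total, LsSq has the largest gap above the others (0.75) and LsCv the largest gap below them (1.03).

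Membership rested on LsCK replicate 2 more than on any other library. Which library lay nearest was counted in the members only and not over all clusters. LsCK replicate 2 was the nearest to LsSq in 88 of the 150 higher members and in 63 of the 150 lower members. When it was left out and the 150 largest gaps were taken from the other 5 libraries, only 30 higher and 40 lower members were taken again, against 76 to 124 higher and 78 to 118 lower members when another library was left out. Leaving out a library also removes 1 condition from the rule, so that more clusters are set apart. Without LsCK replicate 2, LsSq lay above all others in 6996 clusters and below in 3805.

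The position of each left-out library was recorded in the 150 clusters chosen without it. The LsSq libraries of these clusters were chosen as the highest or lowest, which by itself places a left-out library on the side of the rule more often than over all clusters, so the shares are a description and no test. Of 150 clusters chosen as higher without LsCK replicate 1, 142 had that library below both LsSq libraries, against 44.5% of all clusters. With LsCK replicate 2 left out, it lay below both LsSq libraries in 121 of 150, against 38.1% of all clusters. For LsCv the numbers were 143 of 150 without replicate 1 and 143 of 150 without replicate 2, against 58.7% and 46.3% of all clusters. Of clusters chosen without an LsSq library, the left-out replicate 1 lay above all others in 144 of 150 and the left-out replicate 2 in 122 of 150, against 24.5% and 21.8% of all clusters.

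In the lower direction the share was smallest for LsCK replicate 2. It lay above both LsSq libraries in 66 of the 150 clusters chosen without it (44%), against 40.2% of all clusters. LsCK replicate 1 did so in 142 of 150, against 36.9%, LsCv replicate 1 in 115, against 27.6%, and LsCv replicate 2 in 146, against 36.9%. The left-out LsSq replicate 1 lay below all others in 121 of 150 and replicate 2 in 131 of 150, against 12.9% and 14.6% of all clusters.

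**Figure D4:**
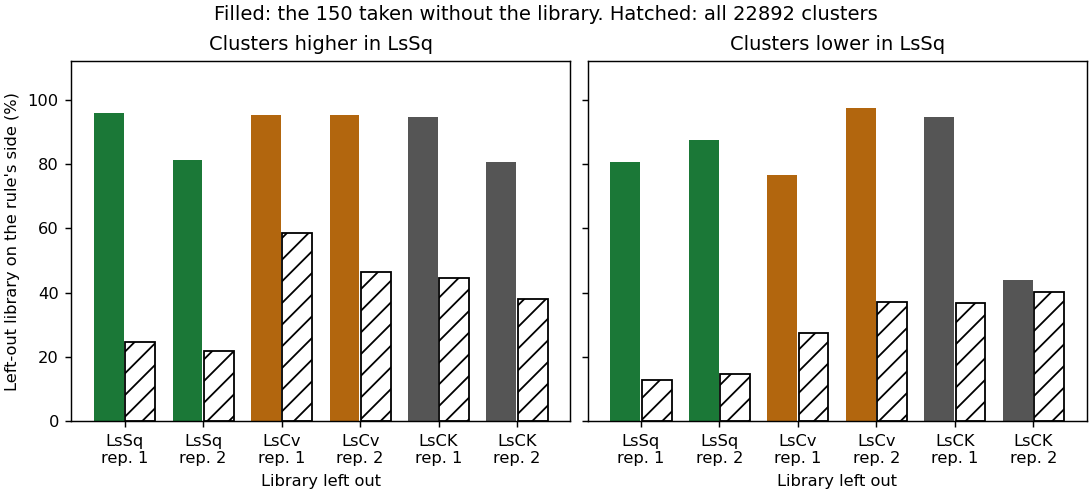
Share (%) of clusters in which a library left out of the choice lay on the side that the rule asks for, among the 150 clusters chosen without it (filled bars) and among all 22892 clusters (hatched bars), for higher (left) and lower (right) clusters. The filled bars are raised by the choice of clusters with extreme LsSq libraries, and the lowest of them is that of LsCK replicate 2 among lower clusters, where 44% stands beside 40.2%.

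The order of LsCv and LsCK was not set by the rule, although their libraries entered it as the highest or lowest of 4. Both LsCv libraries lay below both LsCK libraries in 46 of the 150 higher members (30.7%), against 25.3% of all clusters, and above them in 5 (3.33%), against 10.9% of all clusters. In the lower members both LsCv libraries lay above both LsCK libraries in 51 (34.0%), against 10.9%, and below them in 5, against 25.3%. After TMM scaling the numbers were 35 below and 10 above among higher members, against 20.4% and 16.1% of all clusters, and 67 above and 1 below among lower members. Both LsCv libraries thus lay above both LsCK libraries in a larger share of the lower members than of all clusters under either scaling. In the higher members the mean of LsCv lay above that of LsCK in 28 (18.7%), against 37.4% of all clusters, and after TMM scaling in 52 (34.7%), against 48.0% of all clusters.

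In the edgeR fit the median log2 fold change of LsCv versus LsCK was -0.21 over the higher members, 0.52 over the lower members and -0.03 over the 28157 clusters tested. It was positive in 123 of the 150 lower members (82.0%), against 47.9% of all clusters, and negative in 98 of the 150 higher members, against 52.1% of all clusters. Without LsCK replicate 2 the medians were -0.13 over higher members, 0.44 over lower members and 0.01 over all clusters tested. Under each of the 13 alternatives tried, the median over lower members lay above that of all clusters, at 0.42 to 0.66. The members stayed those chosen with all 6 libraries, so these alternatives are no check independent of the choice.

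No single member passed the threshold in LsCv versus LsCK. All shares of members in this comparison are a description and no test, because the rule used the same LsCv and LsCK libraries. With edgeR, 0 of 300 members and 0 of 28157 clusters (0%) had an adjusted p of at most 0.05, and the smallest adjusted p among members was 0.533. At an unadjusted p under 0.05, 15 lower members were higher in LsCv, 10.0% against 2.39% of all clusters tested, and 0 were lower. Of the higher members 5 were lower in LsCv, 3.33% against 6.35% of all clusters tested, and 0 were higher. DESeq2 on all 6 libraries called 437 clusters (1.11%), among them 3 lower members and 0 higher members, and on the 4 libraries compared it called 225 (0.58%), among them 0 members. These counts moved with the libraries used, and so did their background. Lower members that were higher in LsCv at an unadjusted p under 0.05 numbered 26 without LsCK replicate 1 (17.3%, against 8.30% of all clusters in that fit), 8 without LsCK replicate 2 (5.33%, against 1.41%), 8 without LsCv replicate 1 (5.33%, against 1.37%) and 9 without LsSq replicate 1 or 2 (6.00%, against 0.880% or 0.892%). Higher members that were lower in LsCv at that level numbered 9 without LsCK replicate 1 (6.00%, against 10.4%), 13 without LsCv replicate 1 (8.67%, against 3.60%), 29 without LsCv replicate 2 (19.3%, against 7.84%) and 3 without LsSq replicate 1 or 2 (2.00%, against 3.76% or 3.77%). The share of higher members thus lay below that of all clusters in some of these fits and above it in others.

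**Figure D5:**
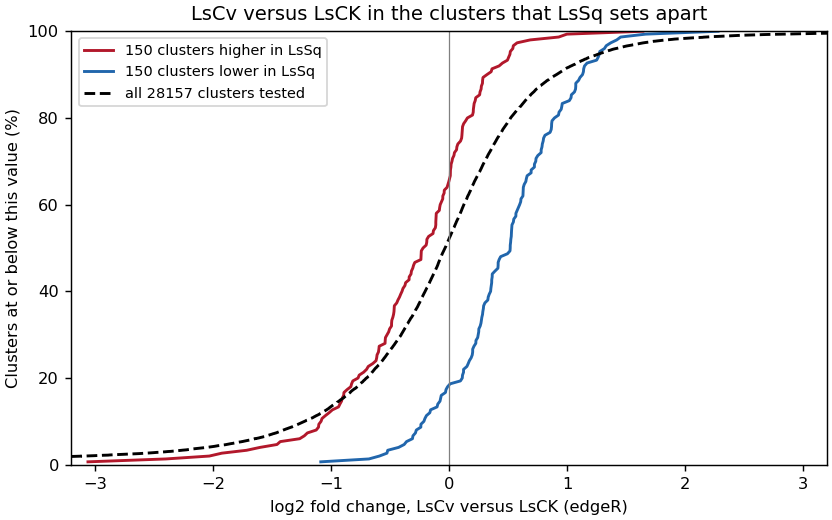
Cumulative share (%) of clusters by log2 fold change of LsCv versus LsCK in the edgeR fit, for the 150 higher members (red), the 150 lower members (blue) and all 28157 clusters tested (dashed), between -3.2 and 3.2. The curve of the lower members lies to the right, with a median of 0.52 against -0.03 for all clusters, and that of the higher members crosses the dashed curve.

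For the comparisons that the rule used, the fitted values describe the size of the distances. The median log2 fold change over higher members was 1.45 in LsSq versus LsCK and 1.75 in LsSq versus LsCv. Over lower members it was -1.68 in LsSq versus LsCK and -2.29 in LsSq versus LsCv, and both medians were the same with the 2 members of at most 3 counts in LsSq set to 3 counts per library. These comparisons share the LsSq libraries, and those of either extract with the control share the LsCK libraries. All 300 members passed the filter on low counts.

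With edgeR, 0 of 28157 clusters (0%) were called in LsSq versus LsCK, with 1310 at an unadjusted p under 0.05 (2.23% higher and 2.43% lower in LsSq), and 0 (0%) in LsSq versus LsCv, with 4496 at that level (9.71% higher and 6.26% lower). Of the members, 117 higher and 145 lower ones were at that level in LsSq versus LsCK, and 131 and 147 in LsSq versus LsCv. The smallest adjusted p among members was 0.962 in LsSq versus LsCK and 0.229 in LsSq versus LsCv. DESeq2 on all 6 libraries called 144 clusters (0.367%) in LsSq versus LsCK, among them 17 higher and 34 lower members, and 1469 clusters (3.74%) in LsSq versus LsCv, among them 68 higher and 130 lower members. On the libraries of the groups compared it called 179 (0.462%) and 2782 (7.54%). The members were chosen on these distances, so their counts add nothing to the choice.

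For the clusters given by identifier, the standard errors show how wide the fitted distances were. Cluster-15809.10965 differed by 2.65 (SE 0.75) in LsSq versus LsCK and 3.16 (SE 0.77) in LsSq versus LsCv on the log2 scale, and Cluster-15809.14772 by 2.16 (SE 0.53) and 2.15 (SE 0.53). Cluster-19213.1 differed by -3.06 (SE 0.50) and -4.34 (SE 0.53), and Cluster-15809.4030 by -2.76 (SE 0.49) and -3.19 (SE 0.50). In LsCv versus LsCK the values were -0.51 (SE 0.72) for Cluster-15809.10965, 0.01 (SE 0.51) for Cluster-15809.14772 and 0.42 (SE 0.46) for Cluster-15809.4030. All 3 were smaller than their standard errors. In LsSq versus LsCv, leaving out LsCv replicate 1 changed the value to 4.71 for Cluster-15809.10965, 3.06 for Cluster-15809.14772 and -3.71 for Cluster-19213.1, and leaving out LsCv replicate 2 changed it to 2.42 for Cluster-15809.10965. In LsSq versus LsCK, Cluster-15809.4030 was at -2.02 without LsCK replicate 1.

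Cytokinin hydroxylase, Cluster-16226.0, was -2.46 (SE 0.69) in LsSq versus LsCK and -2.80 (SE 0.70) in LsSq versus LsCv, and 0.34 (SE 0.64) in LsCv versus LsCK. ZOG, Cluster-3690.0, was -1.95 (SE 0.60), -3.13 (SE 0.62) and 1.18 (SE 0.58) in the same comparisons. Neither passed the adjusted threshold of edgeR in any of them. In LsSq versus LsCv both did so with DESeq2. Single libraries decided much of these sizes. Cluster-16226.0 was at -1.77 in LsSq versus LsCK and -2.10 in LsSq versus LsCv without LsSq replicate 1, and at -3.82 and -4.15 without LsSq replicate 2. Cluster-3690.0 was at -1.01 in LsSq versus LsCK and 2.16 in LsCv versus LsCK without LsCK replicate 1.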

How the data were processed

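Leaf RNA was sequenced in 6 libraries, 2 each of LsSq, LsCv and LsCK, and groups and replicate numbers were taken from the labels. The authors assembled the reads de novo with Trinity, grouped transcripts into clusters with Corset and counted them with RSEM. The submitters' processing notes name CASAVA 1.8, RSEM and DESeq2 1.26.0. The deposited values are expected counts, without normalization, which need not be whole where reads are divided between clusters. Columns of per-sample values left unused numbered 0. The supplementary list of clusters with descriptions was held in part, and the authors' fold changes in it were not used.

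CPM and gaps were computed with Python 3.11.15 and pandas 2.3.3. For the tests, the expected counts, rounded to whole numbers, were analysed in R 4.3.3 with edgeR 4.0.16 (filterByExpr by group, TMM, glmQLFit and glmQLFTest, all 6 libraries in 1 fit), with Benjamini-Hochberg adjustment over the 28157 clusters tested and a threshold of 0.05. DESeq2 1.42.0 was an alternative, and adjusted p-values it left undefined stayed so. The code was tested on simulated data for LsSq versus LsCK, with a common spread estimated from these libraries (dispersion 0.211). Of 200 clusters changed by 2 on the log2 scale, edgeR recovered 4, and of 200 changed by 4 it recovered 196. A result of 0 clusters called by edgeR therefore does not show that changes near 2 were absent. Other alternatives were other offsets, scalings and filters, the replicate number as a block, the groups compared alone, and each library left out.

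The members and lists were chosen with earlier results of these data known. Clusters were named by a rule: the 2 largest gaps in each direction by identifier, other members of the first 10 and those with the most CPM as values, and listed clusters of the study whose gap reached that of the members. The clusters named from the supplementary list, and LOG3, fall outside it and were chosen after their values were seen. The depth was 26.4 to 35.2 M counts per library, and the number of libraries per group, 2, limits the precision.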

Additional observations from a re-analysis of the deposited data

How the results depend on the processing

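Of the counts and calls, 152 of the values under alternatives stayed near the first value and 47 did not. Near meant within 1.5 times the first value, or 0 where that was 0. Of the single-cluster and median values, 286 were unchanged, 19 passed the threshold only with DESeq2 and 7 turned round. Unchanged meant the same direction and call for a single cluster. For a median it meant the same direction and a shift below the median standard error. With clusters of fractional counts left out, 1930 clusters lay above and 858 below the rest in LsSq, and 89 lower members were taken again; with a mean of at least 5 CPM, 85 higher and 92 lower members were, from fewer clusters by construction. With each library left out in turn, 3762 to 6996 clusters lay above and 2025 to 3805 below, and 30 to 124 higher and 40 to 118 lower members were taken again, the fewest members without LsCK replicate 2. An offset of 0.1 kept 136 and 132, and an offset of 2 kept 114 and 109.

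DESeq2 on all 6 libraries, and on the groups compared, called 144 and 179 clusters in LsSq versus LsCK (17 and 27 higher, 34 and 35 lower members), 1469 and 2782 in LsSq versus LsCv (68 and 87 higher, 130 and 125 lower members), and 437 and 225 in LsCv versus LsCK (3 lower members on all 6 libraries). In that comparison edgeR called 0 to 188 clusters with a library left out, 188 without LsCK replicate 1. The higher members at an unadjusted p under 0.05 there numbered 5 in the fit reported, 3 with DESeq2 or edgeR on the groups compared, and 3 to 30 with a library left out; the lower members numbered 15, and 8 to 26. The 3 higher members on the groups compared were lower in LsCv (2%, against 4.22% of all clusters with DESeq2 and 3.85% with edgeR). Lower members that were higher in LsCv made up 10% with DESeq2, against 1.65% of all clusters. With edgeR on the groups compared they made up 6.67%, against 1.32%. Where a group was left with 1 library, it was assumed to vary like the others. The cause of these changes was not tested.

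The LsCv versus LsCK value turned round for Cluster-15809.10965 (0.06 without LsCK replicate 2, 0.23 without LsCv replicate 2; -2.09 to 0.23 with a library left out), for Cluster-15809.14772 (-0.018 without a filter, -0.10 with the replicate block, -0.28 without LsCK replicate 1, -0.93 without LsCv replicate 1; -0.93 to 0.58 with a library left out) and for Cluster-15809.4030 (-0.088 without LsCK replicate 2; up to 1.21 without LsCK replicate 1). With the replicate number as a block, edgeR still called 0 clusters in each comparison, and in LsCv versus LsCK 9 higher members were lower (6.00%, against 7.53% of all clusters in that fit) and 18 lower members higher (12%, against 4.26%) at an unadjusted p under 0.05. Deviations of same-numbered libraries correlated across clusters at 0.15 to 0.24, but with 2 pairs and no label saying what a number marks, the libraries were taken to share only a number.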
